A study of Homo sapiens with 18 samples.

Results

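A set of 8 genes of primary (azurophil) granules and of the progenitors that make them was followed through 18 libraries of cap analysis of gene expression (CAGE), a method that counts where transcripts start by reading tags next to the RNA cap. The genes were CTSG, PRTN3, ELANE, AZU1, PRSS57, CFD, SRGN and MS4A3. They were chosen by name, all 8 were found among the 14079 gene symbols of the count table, and all 8 passed the filter on low counts that left 10031 genes. The libraries came from 6 groups of 3: AML3 cells with OTX015, AML3 cells with JQ1, AML3 cells with vehicle (DMSO), and the same 3 treatments of AML2 cells. AML3 and AML2 are the human acute myeloid leukaemia lines OCI-AML3, which as background carries a mutated NPM1 gene, and OCI-AML2, which does not. OTX015 and JQ1 are thienotriazolodiazepines that occupy the acetyl-lysine pockets of BET bromodomain proteins. Neither dose nor treatment time is given in the labels, each genotype is represented by a single line, and nothing says whether the libraries of a group came from separate cultures, so the p-values measure only the spread between these libraries.

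Primary granules are the first granules that appear as a progenitor turns into a neutrophil, and their proteins are made almost entirely at the promyelocyte stage. Cathepsin G, proteinase 3 and neutrophil elastase are serine proteases made as inactive precursors, trimmed by cathepsin C and stored on the glycosaminoglycan chains of serglycin until they are released onto microbes. Azurocidin has the same fold but lacks protease activity. The genes are switched on by C/EBP factors, PU.1, MYB and RUNX1, and BET proteins bind the acetylated chromatin at such genes.

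The 8 genes lie at 5 places in the genome (GRCh38, GENCODE release 29). AZU1 (chr19:825097-832018), PRTN3 (chr19:840960-848175), ELANE (chr19:851014-856247) and CFD (chr19:859643-863630) stand head to tail on the plus strand within 38.534 kb. PRSS57 (chr19:685546-695498, minus strand) lies further off, with its start at −129.6 kb from that of AZU1. CTSG (chr14:24573522-24576260, minus strand), SRGN (chr10:69088106-69104811, plus strand) and MS4A3 (chr11:60056587-60071128, plus strand) stand on other chromosomes. All 8 are annotated as protein-coding. In these bulk samples, fewer cells of a type and less RNA per cell cannot be told apart.

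Promoter sequence of 6 of the 8 genes was taken from RefSeq (GRCh38.p14), as the 250 bases that end just before the annotated start. The 5 shown are those of CTSG, PRTN3, AZU1 and MS4A3, which fell with a compound in 1 or both lines, and of CFD, which rose in both. Each is written 5′ to 3′ in the direction of its gene. Capitals mark matches to 5 motifs, searched on both strands. The C/EBP motif was TTGCNNAA. For PU.1 the letters searched on either strand were GAGGAA. For MYB the letters searched on either strand were NAACNG. For RUNX factors the letters searched on either strand were TGTGGT. For the TATA box the letters searched on either strand were TATAAA. They cover chr14:24576251-24576500 on the minus strand for CTSG, chr19:840749-840998, chr19:827587-827836 and chr19:859414-859663 on the plus strand for PRTN3, AZU1 and CFD, and chr11:60056415-60056664 on the plus strand for MS4A3.
CTSG: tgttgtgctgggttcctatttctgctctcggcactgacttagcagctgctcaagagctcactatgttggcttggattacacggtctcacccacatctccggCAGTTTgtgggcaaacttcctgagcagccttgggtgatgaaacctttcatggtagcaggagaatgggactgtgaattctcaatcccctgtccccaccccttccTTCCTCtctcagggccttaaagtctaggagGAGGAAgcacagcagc
PRTN3: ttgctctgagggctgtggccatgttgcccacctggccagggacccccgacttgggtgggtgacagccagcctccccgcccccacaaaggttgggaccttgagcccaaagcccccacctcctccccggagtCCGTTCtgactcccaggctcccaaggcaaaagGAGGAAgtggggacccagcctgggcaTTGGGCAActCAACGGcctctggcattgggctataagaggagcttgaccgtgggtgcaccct
AZU1: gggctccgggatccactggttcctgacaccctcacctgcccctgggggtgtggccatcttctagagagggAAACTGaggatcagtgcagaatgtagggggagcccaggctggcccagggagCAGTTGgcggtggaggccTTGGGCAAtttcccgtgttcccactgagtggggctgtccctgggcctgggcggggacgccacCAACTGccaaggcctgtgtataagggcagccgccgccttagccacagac
CFD: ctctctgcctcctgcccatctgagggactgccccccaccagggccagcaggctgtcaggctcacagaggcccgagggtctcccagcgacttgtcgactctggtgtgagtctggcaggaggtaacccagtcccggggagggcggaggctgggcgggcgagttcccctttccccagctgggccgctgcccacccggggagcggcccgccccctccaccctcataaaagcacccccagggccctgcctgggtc
MS4A3: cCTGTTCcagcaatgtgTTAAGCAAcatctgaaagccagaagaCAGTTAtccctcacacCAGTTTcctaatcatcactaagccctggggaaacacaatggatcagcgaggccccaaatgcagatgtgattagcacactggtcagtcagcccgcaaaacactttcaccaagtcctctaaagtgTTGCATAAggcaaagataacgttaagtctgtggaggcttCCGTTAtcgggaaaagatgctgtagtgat

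The PU.1 letters occurred in CTSG, at 16 bases before the start and, on the other strand, with their first base at 46 before it, and in PRTN3 at 88 before the start. They are found in 23.6% of the 35116 promoter windows of the same length in that RefSeq table. The C/EBP letters occurred in PRTN3 (TTGGGCAA), in AZU1 (TTGGGCAA) and at 2 places in MS4A3 (TTGCATAA and TTAAGCAA), against 9.05% of all windows. The MYB letters, present in 70.4% of all windows, occurred in CTSG, PRTN3, AZU1, MS4A3 and PRSS57. The RUNX letters (11% of windows) occurred in PRSS57 alone of the 6, and the TATAAA letters (10.7% of windows) in none of them. The CFD window held none of the 5 motifs. Matches of different motifs did not overlap. A match describes these letters and is not evidence of a bound site.

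Most of each gene's tags came from 1 narrow start region. Promoters, which the authors' table names in hg19 coordinates, were tied to the genes where their counts summed to the gene's counts in every library. CTSG had a single promoter of 19 bases (hg19 chr14:25045446-25045464). The leading promoter held 99.7% of the tags of SRGN, 99.6% of those of CFD, 99.0% of those of PRTN3, 98.9% of those of AZU1 and 95% of those of ELANE. It held 86.5% of the tags of MS4A3 and 72.5% of those of PRSS57, whose starts were spread over 3 promoters. Tested on their own with edgeR among 12867 promoters, 7 leading promoters passed with OTX015 in AML3 (54.2% of all promoters), 7 with JQ1 in AML3 (50.3%), 5 with OTX015 in AML2 (40.6%) and 4 with JQ1 in AML2 (35.1%). Their direction was that of the gene wherever a fold could be given. Leading promoters hold most of their gene's tags, so this is no separate check.

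The libraries held 303883 to 2163106 gene tags, with TMM factors of 0.769 to 1.55, and those numbered 3 were the shallowest of their groups. Levels below are CPM, tag counts scaled to a common library size after multiplying each library size by its TMM factor, and because CAGE counts only 5′ ends they need no correction for gene length. Differences between groups are on the log2 scale, with the standard error written as SE. A gene is said to rise or fall where edgeR's quasi-likelihood test gave a Benjamini-Hochberg adjusted p under 0.05 over all 10031 genes. Of 6 granulocyte progenitor markers, 5 were in the table and all 5 are among the 8 genes, so that list is no separate check. Monocyte and macrophage markers (12 of 14 in the table) summed to 133 to 284 CPM in AML3 with OTX015, 215 to 301 CPM with JQ1 and 403 to 569 CPM with vehicle. In AML2 the same markers summed to 5205 to 8561 CPM with OTX015, 4564 to 7037 CPM with JQ1 and 453 to 1380 CPM with vehicle. Of these 12, CSF1R, FCN1, LILRB1 and ITGAM were at 0 in AML3 with OTX015, and ITGAM with JQ1. FCN1 and CD36 were at 0 in AML2 with OTX015, FCN1, VCAN and CD36 with JQ1, and VCAN with vehicle. What part the monocyte and macrophage markers had in the results was not tested. Of 8 lymphoid markers 2 were in the table, and they summed to 0 CPM in both AML3 drug groups, against 2.35 to 2.84 CPM with vehicle. In AML2 they summed to 8.42 to 11.7 CPM with OTX015 and 7.06 to 20.5 CPM with JQ1, against 34.5 to 43.8 CPM with vehicle. Of 6 megakaryocyte markers 3 were in the table, at 0 to 3.28 CPM with OTX015, 0 to 9.02 CPM with JQ1 and 0.865 to 1.42 CPM with vehicle in AML3, and at 29.2 to 61.1, 14.1 to 47.6 and 8.94 to 21.9 CPM in the same groups of AML2. Of 8 erythroid markers 1 was in the table. The part of these markers in the results was not tested either.

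**Figure D1:**
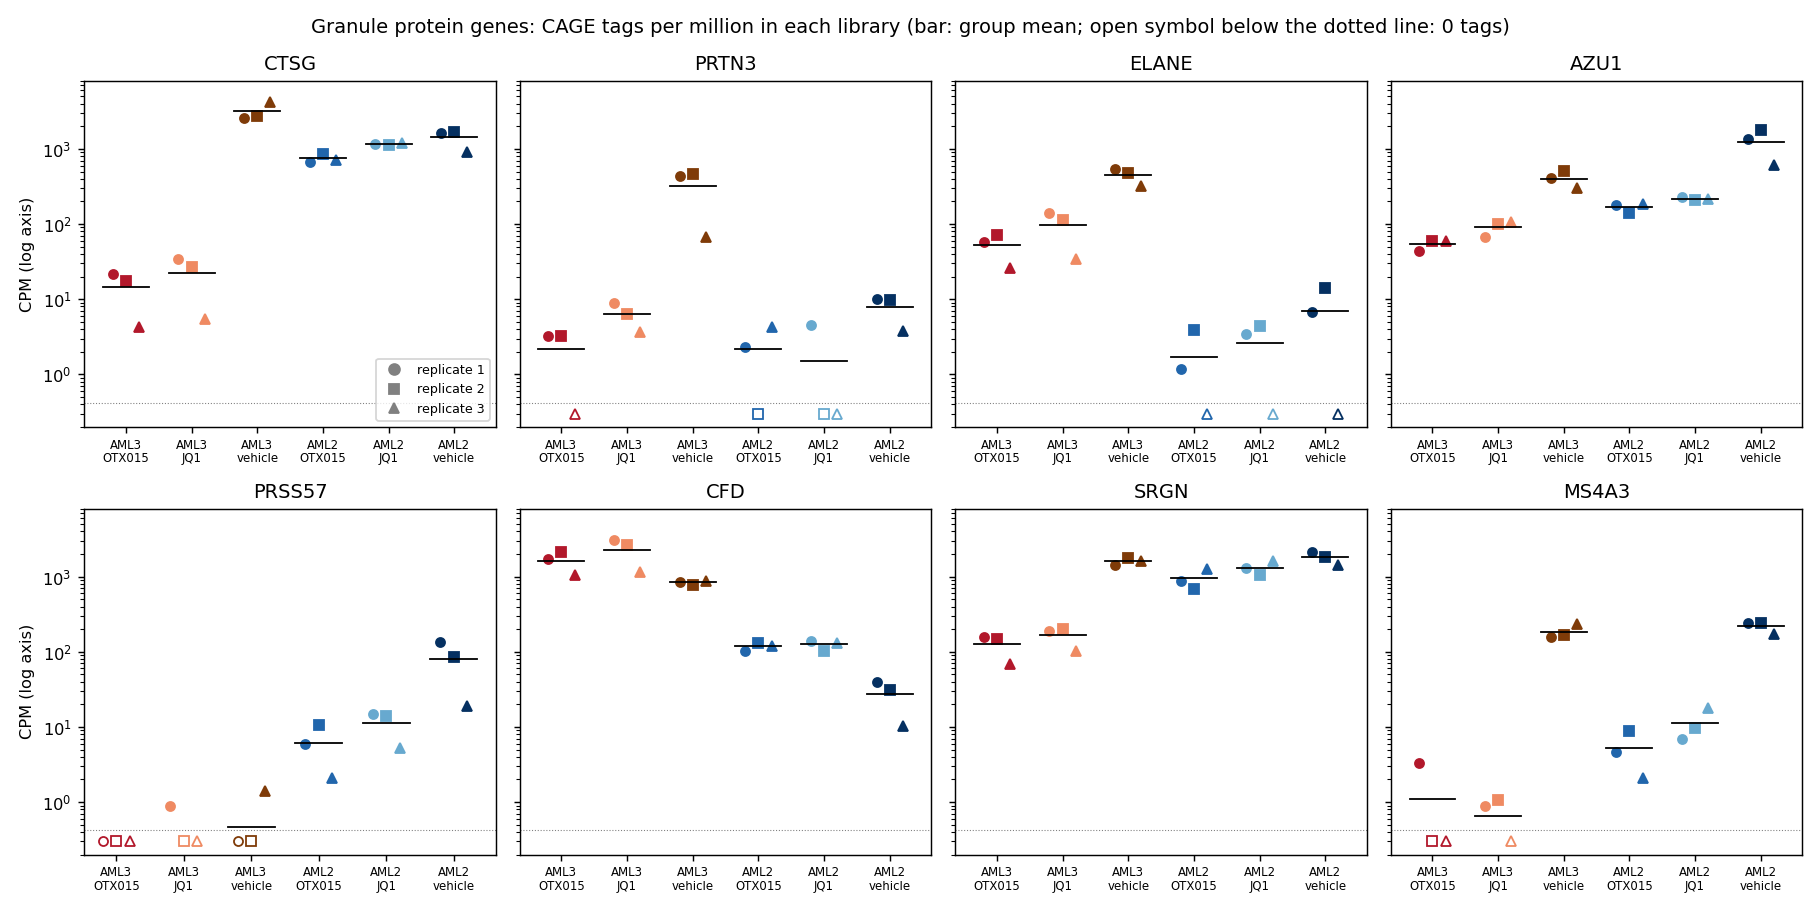
CPM of each of the 8 genes in each library, on a log axis, with 1 panel per gene. Symbols are replicates, bars are group means and open symbols below the dotted line are libraries with 0 tags. Every panel but those of CFD and PRSS57 has the AML3 drug libraries below the AML3 vehicle libraries, and CFD has them above.

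In AML3 cells both compounds lowered 6 of the 8 genes and raised 1, CFD. With OTX015 the 7 genes that passed the test stood against 54.9% of all genes tested (28.8% higher and 26.1% lower). With JQ1 they stood against 50.8% of all genes (26.8% higher and 24.1% lower). The eighth gene, PRSS57, had at most 1 tag in any AML3 library and allows no fold. The libraries of drug and vehicle did not overlap for 7 of the 8 genes with OTX015 (62.1% of all genes) and for the same number with JQ1 (59% of all genes). Over the 7 genes with a usable fold, the median log2 change was −3.65 with OTX015 and −3.27 with JQ1, against 0.03 and 0.04 over all genes tested.

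CTSG, which encodes cathepsin G, had 21.8, 17.5 and 4.31 CPM in AML3 with OTX015 and 34.7, 26.4 and 5.41 CPM with JQ1, against 2554, 2718 and 4190 CPM with vehicle. Every drug library lay far below every vehicle library, and the library numbered 3 was the lowest of each drug group and the highest of the vehicle group. The log2 change was −7.63 with OTX015 (SE 0.54, edgeR adjusted p = 1.32e-10), a level 199-fold lower, and −7.05 with JQ1 (SE 0.52, edgeR adjusted p = 4.31e-10), a level 133-fold lower. With replicates 1 and 2 alone the values were −7.07 and −6.42.

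PRTN3, which encodes proteinase 3, had 3.28, 3.29 and 0 CPM in AML3 with OTX015 and 8.89, 6.34 and 3.61 CPM with JQ1, against 441, 461 and 66.7 CPM with vehicle. The vehicle library numbered 3 was far below its 2 partners and still above every drug library. The log2 change of PRTN3 was −6.91 with OTX015 (SE 0.68, edgeR adjusted p = 1.46e-08) and −5.57 with JQ1 (SE 0.57, edgeR adjusted p = 4.12e-08). ELANE, which encodes neutrophil elastase, had 57.9, 72.3 and 25.8 CPM with OTX015 and 141, 113 and 34.3 CPM with JQ1, against 537, 480 and 325 CPM with vehicle. Every drug library was below every vehicle library. For ELANE the log2 change was −3.04 with OTX015 (SE 0.41, edgeR adjusted p = 1.46e-06) and −2.17 with JQ1 (SE 0.38, edgeR adjusted p = 5.66e-05).

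AZU1, which encodes azurocidin, an antimicrobial protein that attracts monocytes, had 43.7, 59.1 and 60.3 CPM in AML3 with OTX015 and 67.6, 101.5 and 106 CPM with JQ1, against 405, 502 and 299 CPM with vehicle. Its drug libraries were close to each other and did not overlap with the vehicle libraries. The log2 change of AZU1 was −2.90 with OTX015 (SE 0.34, edgeR adjusted p = 2.29e-07) and −2.14 with JQ1 (SE 0.33, edgeR adjusted p = 8.80e-06). PRSS57, a granule protease that cuts after arginine, had 0 tags in the 3 AML3 libraries with OTX015, 1 tag over those with JQ1 and 1 tag over those with vehicle.

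SRGN encodes serglycin, the proteoglycan core that holds the proteases in the granule. In AML3 it had 158, 150 and 68.9 CPM with OTX015 and 191, 202 and 101 CPM with JQ1, against 1417, 1752 and 1628 CPM with vehicle. The drug libraries were all far below the vehicle libraries, with the libraries numbered 3 the lowest of their drug groups. For SRGN the log2 change was −3.65 with OTX015 (SE 0.39, edgeR adjusted p = 4.67e-08) and −3.27 with JQ1 (SE 0.38, edgeR adjusted p = 2.26e-07). MS4A3, a membrane protein of granulocyte-monocyte progenitors and not a granule content, held 3, 0 and 0 tags with OTX015 and 1, 1 and 0 tags with JQ1, against 620 tags over the 3 vehicle libraries (156, 165 and 231 CPM). Against vehicle, the level was 133-fold lower with OTX015 (95% counting interval 45.3 to 646, edgeR adjusted p = 1.32e-10) and 228-fold lower with JQ1 (62.9 to 1888, edgeR adjusted p = 8.57e-11). Without AML3 OTX015 replicate 1 the OTX015 group holds 0 tags. Both intervals cover counting error only.

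CFD encodes complement factor D, the serine protease that cuts factor B in the alternative complement pathway, and it was the gene of the 8 that rose. In AML3 it had 1710, 2138 and 1038 CPM with OTX015 and 3067, 2612 and 1140 CPM with JQ1, against 859, 779 and 885 CPM with vehicle. The drug libraries numbered 3 were the lowest of their groups and still above all vehicle libraries. The log2 change was 0.96 with OTX015 (SE 0.37, edgeR adjusted p = 0.0314) and 1.44 with JQ1 (SE 0.37, edgeR adjusted p = 0.00257). The OTX015 call was lost without AML3 vehicle replicate 1 (adjusted p = 0.0721), 2 (0.0902) or 3 (0.0590) and without AML3 OTX015 replicate 1 (0.0654) or 2 (0.145), each with edgeR.

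**Figure D2:**
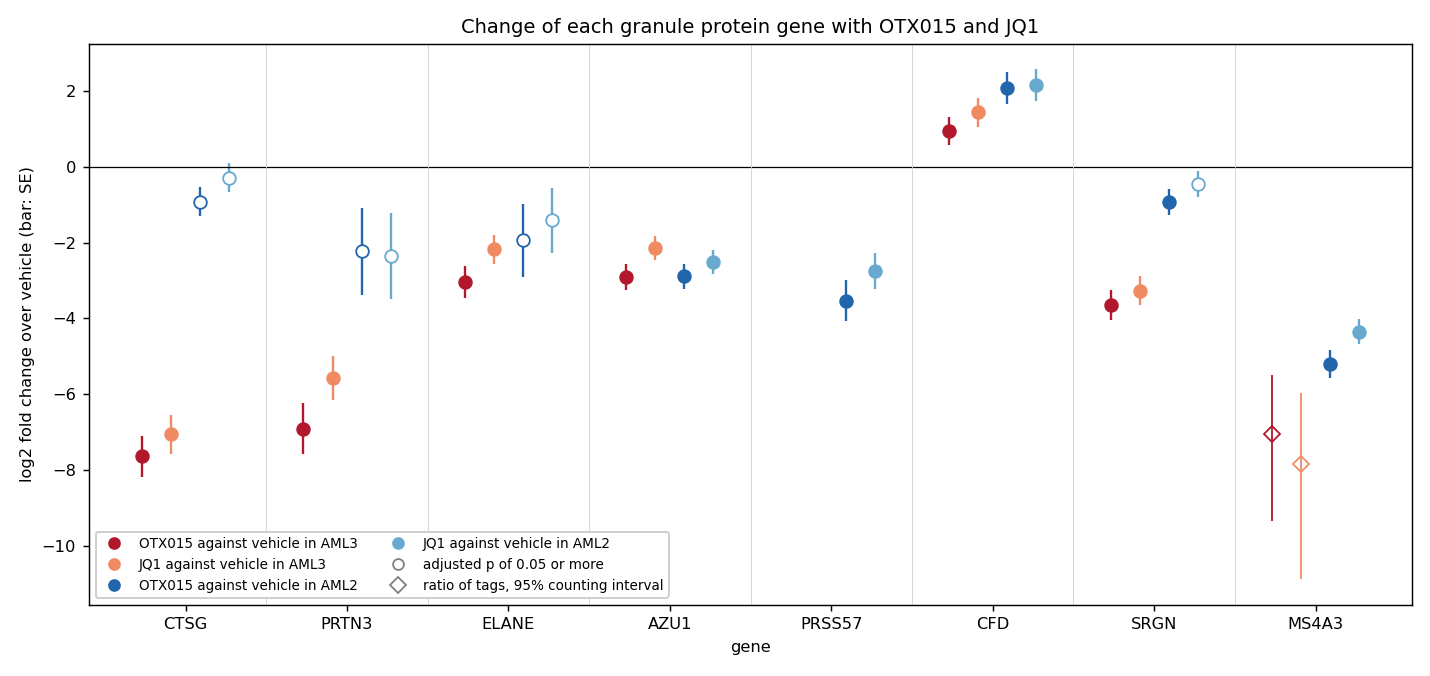
Log2 fold change of each gene over vehicle for OTX015 and JQ1 in AML3 and in AML2, with bars for the SE. Filled circles passed the test, white circles did not, and diamonds are ratios of tag counts with 95% counting intervals for MS4A3 in AML3. CTSG reaches −7.63 in AML3 and −0.92 in AML2 with OTX015, while AZU1 stands at −2.90 and −2.89.

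In AML2 cells AZU1, PRSS57 and MS4A3 fell with both compounds, SRGN with OTX015 alone, and CFD again rose with both. With OTX015 4 fell, 1 rose and 3 did not pass, against 40.3% of all genes called (20.5% higher and 19.9% lower). With JQ1 3 fell, 1 rose and 4 did not pass, against 34.6% of all genes called (17.2% higher and 17.4% lower). The libraries did not overlap for 6 of the 8 genes with OTX015 (51.5% of all genes) and for 4 with JQ1 (48.3% of all genes). The median log2 change over the 8 genes was −2.09 with OTX015 and −1.89 with JQ1, against 0.02 and 0.00 over all genes tested.

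CTSG was not called in AML2 with either compound. It had 671, 867 and 710 CPM with OTX015 and 1157, 1116 and 1212 CPM with JQ1, against 1652, 1699 and 907 CPM with vehicle. The OTX015 libraries were all below the vehicle libraries, while the JQ1 libraries lay within the range of the vehicle libraries. The log2 difference was −0.92 with OTX015 (SE 0.39, edgeR adjusted p = 0.0590) and −0.29 with JQ1 (SE 0.38, edgeR adjusted p = 0.593), and neither passed. The OTX015 difference passed without AML2 vehicle replicate 3 (−1.16, edgeR adjusted p = 0.0326), AML3 JQ1 replicate 3 (0.0168) or AML3 OTX015 replicate 3 (0.0289), with DESeq2 (adjusted p = 0.0133), with only the groups compared (edgeR adjusted p = 0.0123) and with replicates 1 and 2 alone (edgeR adjusted p = 6.07e-06). The JQ1 difference passed with replicates 1 and 2 alone (−0.51, edgeR adjusted p = 0.0227).

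AZU1 fell with both compounds in AML2 too. It had 177, 142 and 185 CPM with OTX015 and 226, 211 and 215 CPM with JQ1, against 1360, 1761 and 608 CPM with vehicle. Every drug library was below the lowest vehicle library, which was the one numbered 3. The log2 change was −2.89 with OTX015 (SE 0.33, edgeR adjusted p = 2.16e-07) and −2.52 with JQ1 (SE 0.32, edgeR adjusted p = 1.66e-06). PRSS57, which was near 0 in AML3, had 5.84, 10.6 and 2.11 CPM in AML2 with OTX015 and 14.8, 14.1 and 5.29 CPM with JQ1, against 137, 85.2 and 19.2 CPM with vehicle. The libraries did not overlap although those with vehicle differed widely. The log2 change of PRSS57 was −3.53 with OTX015 (SE 0.54, edgeR adjusted p = 1.65e-05) and −2.75 with JQ1 (SE 0.48, edgeR adjusted p = 0.000105). The OTX015 value was −4.17 without AML2 OTX015 replicate 2, and the JQ1 value was −3.52 at its leading promoter alone.

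MS4A3 had 4.67, 8.71 and 2.11 CPM in AML2 with OTX015 and 6.85, 9.70 and 17.6 CPM with JQ1, against 241, 245 and 171 CPM with vehicle. The lowest vehicle library was well above the highest drug library. The log2 change of MS4A3 was −5.21 with OTX015 (SE 0.37, edgeR adjusted p = 1.07e-10), or −5.83 without AML2 OTX015 replicate 2, and −4.35 with JQ1 (SE 0.33, edgeR adjusted p = 6.57e-10). SRGN had 886, 693 and 1280 CPM with OTX015 and 1290, 1036 and 1616 CPM with JQ1, against 2110, 1841 and 1448 CPM with vehicle. In AML2 it ranked between 121 and 214 among the tested genes in every library, and the JQ1 libraries overlapped with those of vehicle. The log2 change was −0.92 with OTX015 (SE 0.35, edgeR adjusted p = 0.0356) and −0.46 with JQ1 (SE 0.34, edgeR adjusted p = 0.321). The OTX015 call was lost with library size in place of TMM (edgeR adjusted p = 0.0753) and without AML2 vehicle replicate 1 (0.115) or 2 (0.0752) or AML2 OTX015 replicate 1 (0.106) or 2 (0.152).

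PRTN3 and ELANE were low in every AML2 group, vehicle included. PRTN3 had 2.34, 0 and 4.21 CPM with OTX015 and 4.57, 0 and 0 CPM with JQ1, against 10.1, 9.76 and 3.83 CPM with vehicle. ELANE had 1.17, 3.87 and 0 CPM with OTX015 and 3.42, 4.41 and 0 CPM with JQ1, against 6.74, 14.1 and 0 CPM with vehicle. These are 4 to 34 tags per group, and the groups overlapped. The log2 differences were −2.23 and −2.36 for PRTN3 with OTX015 and JQ1 (edgeR adjusted p = 0.124 and 0.111) and −1.94 and −1.41 for ELANE (edgeR adjusted p = 0.109 and 0.211), which did not pass. PRTN3 passed for OTX015 and for JQ1 without AML3 vehicle replicate 3 (edgeR adjusted p = 0.0182 and 0.0141), with only the groups compared (0.0183 and 0.0204) and with replicates 1 and 2 alone (0.00105 and 0.00580). The JQ1 value of PRTN3 was −6.05 without AML2 JQ1 replicate 1 (edgeR adjusted p = 0.0449), where the JQ1 group holds 0 tags. ELANE passed for OTX015 without AML2 vehicle replicate 3 (edgeR adjusted p = 0.0403), and for OTX015 and JQ1 with replicates 1 and 2 alone (0.00512 and 0.0280). Leaving out each library moved ELANE between −3.27 (without AML2 OTX015 replicate 2) and −0.88 (without AML2 vehicle replicate 2) with OTX015, and between −1.95 (without AML2 JQ1 replicate 2) and −0.36 (without AML2 vehicle replicate 2) with JQ1.

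CFD rose in AML2 with both compounds. It had 104, 133 and 120 CPM with OTX015 and 140, 103 and 132 CPM with JQ1, against 39.6, 31.5 and 10.2 CPM with vehicle. All drug libraries were above all vehicle libraries. The log2 change was 2.08 with OTX015 (SE 0.42, edgeR adjusted p = 0.000304) and 2.15 with JQ1 (SE 0.42, edgeR adjusted p = 0.000267). The sums of monocyte and macrophage markers given above were also higher with both compounds in AML2 and lower with both in AML3. The part of these markers in the rise of CFD was not tested.

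Whether the lines responded differently was tested as an interaction. For JQ1 the change in AML3 was lower than that in AML2 for 3 of the 8 genes, CTSG, SRGN and MS4A3, against 6.94% of all genes called (3.92% in that direction). For OTX015 it was lower for 2, CTSG and SRGN, against 7.65% (4.81% in that direction). None of the 8 was called in the other direction, which held 3.02% of all genes for JQ1 and 2.84% for OTX015. PRSS57, with at most 1 tag in any AML3 library, allowed no such call. For CTSG the difference between the lines was −6.76 on the log2 scale with JQ1 (SE 0.62, edgeR adjusted p = 7.67e-08) and −6.71 with OTX015 (SE 0.63, edgeR adjusted p = 1.12e-07). For SRGN it was −2.81 with JQ1 (SE 0.50, edgeR adjusted p = 0.000592) and −2.73 with OTX015 (SE 0.50, edgeR adjusted p = 0.000757). With replicates 1 and 2 alone these were −5.91 and −5.99 for CTSG and, with OTX015, −2.09 for SRGN, all still called.

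For MS4A3 the fitted JQ1 difference of −3.32 (SE 0.84, edgeR adjusted p = 0.0137) rests on 2 tags in AML3, depends on the prior count and was −2.45 with replicates 1 and 2 alone. With OTX015 the difference was not called (edgeR adjusted p = 0.231), and its fitted size, −1.79, rests on 3 tags that all came from AML3 OTX015 replicate 1, being −5.25 without that library and −1.12 without AML3 OTX015 replicate 2. AZU1 and CFD gave no called difference. For AZU1 the difference was 0.37 with JQ1 (95% interval −0.53 to 1.28) and −0.01 with OTX015, or −0.34 to 0.32 when each library was left out. For CFD it was −0.72 with JQ1 (−1.84 to 0.41) and −1.13 with OTX015 (−2.26 to 0.00), edgeR adjusted p = 0.493 and 0.230. For PRTN3 the fitted values were −3.21 with JQ1 (−7.14 to 0.71) and −4.68 with OTX015 (−9.05 to −0.31), edgeR adjusted p = 0.358 and 0.191. The OTX015 value passed with DESeq2 (adjusted p = 0.0258) and without AML3 vehicle replicate 3 (edgeR adjusted p = 0.0248). The JQ1 value passed with replicates 1 and 2 alone (−3.65, edgeR adjusted p = 0.0204), and it was 0.48 without AML2 JQ1 replicate 1, so its direction rests on that library.

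OTX015 and JQ1 differ, among other changes, in the group at the end of the side chain, an amide in OTX015 and a tert-butyl ester in JQ1. Because no dose is given, their values are set side by side without knowing that the exposures match. In 16 comparisons of the compounds, 8 genes in each line, none of the 8 genes passed, against 0 of all genes called in either line (edgeR, adjusted over all genes). At an unadjusted p under 0.05, edgeR gave 2 of the 8 genes in AML3, ELANE and AZU1, and 0 in AML2, and 253 and 331 of all genes. DESeq2 called 0 of the 8 in both lines, and 0 and 1 of all genes. The fit with the replicate number as a block called 0 of the 8 and 0 of all genes in both lines. In AML3 the OTX015 level of AZU1 was lower than the JQ1 level by 0.75 (95% interval −1.46 to −0.05) and that of ELANE by 0.87 (−1.73 to −0.01), both with edgeR adjusted p = 1. For CTSG the difference was −0.58 in AML3 (−1.63 to 0.47) and −0.63 in AML2 (−1.42 to 0.16). Same-numbered libraries of the 2 compounds deviated together in both lines, but only those numbered 3 matched their own number best. Pairing by number is therefore not shown. With the number as a block the values for CTSG were −0.58 (−1.58 to 0.42) in AML3 and −0.64 (−1.35 to 0.07) in AML2. Those in AML3 were −0.76 (−1.43 to −0.10) for AZU1 and −0.87 (−1.45 to −0.29) for ELANE. Within same-numbered pairs the OTX015 library was the lower in all 3 pairs for 6 of the 8 genes in AML3, CTSG, PRTN3, ELANE, AZU1, CFD and SRGN (16% of all genes), and for 5 in AML2, CTSG, AZU1, PRSS57, SRGN and MS4A3 (13.5% of all genes). The libraries of the 2 compounds did not overlap for 2 of the 8 genes in AML3, PRTN3 and AZU1 (6.49% of all genes), and for 2 in AML2, CTSG and AZU1 (9.92% of all genes). These intervals leave room for differences of more than 2-fold in CTSG, so they do not show that the compounds act alike.

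Between the lines with vehicle, 4 of the 8 genes were higher and 2 lower in AML3 than in AML2, against 23% of all genes called (11.4% higher and 11.7% lower), and the libraries did not overlap for 6 of the 8 (40.3% of all genes). The median log2 difference over the 8 was 0.49, against −0.04 over all genes. ELANE was 447 ± 110 CPM in AML3 and 6.95 ± 7.05 CPM in AML2 (SD, n = 3 each), a log2 difference of 5.72 (SE 0.49, edgeR adjusted p = 1.60e-09), or 6.77 without AML2 vehicle replicate 2. PRTN3 and CFD, its neighbours, were also higher in AML3, while AZU1, next to PRTN3, was 402 ± 101 CPM in AML3 and 1243 ± 585 CPM in AML2, a log2 difference of −1.63 (SE 0.31, edgeR adjusted p = 0.000253). PRSS57 had 1 tag in AML3 and 334 tags in AML2, so that the AML3 level was 312-fold lower (95% counting interval 55.7 to 12376, edgeR adjusted p = 1.11e-07).

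CTSG was 3154 ± 901 CPM in AML3 and 1419 ± 444 CPM in AML2 with vehicle (SD, n = 3 each), a log2 difference of 1.15 (SE 0.39, edgeR adjusted p = 0.0314). That call was lost without AML3 vehicle replicate 3 (edgeR adjusted p = 0.140) and without AML2 vehicle replicate 1 (0.0535) or 3 (0.149). SRGN and MS4A3 did not pass, at −0.17 (95% interval −0.87 to 0.53) and −0.27 (−0.75 to 0.21). Under the compounds the order of the lines turned for CTSG, whose log2 difference was −5.56 with OTX015 (SE 0.50, edgeR adjusted p = 2.83e-09) and −5.61 with JQ1 (SE 0.49, edgeR adjusted p = 1.32e-09). With OTX015 2 of the 8 were higher and 4 lower in AML3 (37.1% of all genes called), with no overlap for 6 (47.7% of all genes). With JQ1 2 were higher and 5 lower (37.3% of all genes called), with no overlap for 7 (47.8% of all genes). ELANE and CFD were the 2 that stayed higher in AML3 under both compounds. PRTN3 under JQ1, at 2.04 (edgeR adjusted p = 0.205), passed with the replicate number as a block (edgeR adjusted p = 0.0369) and without AML3 vehicle replicate 3 (0.0484). Of the OTX015 calls, that of PRSS57 (0 tags against 17, at least 5.49-fold lower in AML3) was lost without AML2 OTX015 replicate 2 (edgeR adjusted p = 0.0957) and without AML3 OTX015 replicate 1 (0.0540) or 2 (0.0543), and MS4A3 (3 tags against 14, edgeR adjusted p = 0.0545) passed without AML2 OTX015 replicate 3 (0.0360), AML3 JQ1 replicate 3 (0.0497) or AML3 OTX015 replicate 1 (0.00915), at its leading promoter (0.0274) and with replicates 1 and 2 alone (0.0321). The JQ1 call of AZU1, −1.25 (SE 0.32, edgeR adjusted p = 0.00341), was lost with library size in place of TMM (−0.85, adjusted p = 0.0525). The comparisons share libraries, so these counts are not independent of those above.

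The 8 genes together took 0.233% ± 0.0518 of all gene tags in AML3 with OTX015, 0.307% ± 0.0934 with JQ1 and 0.621% ± 0.0362 with vehicle (SD, n = 3 each). In AML2 they took 0.190% ± 0.0451 with OTX015, 0.262% ± 0.0506 with JQ1 and 0.389% ± 0.117 with vehicle. The make-up of that sum is given next. CFD held 86.6% ± 1.02 of the tags of the 8 genes in AML3 with OTX015 and 84.9% ± 2.70 with JQ1, against 12.2% ± 1.17 with vehicle. CTSG held 0.724% ± 0.367 and 0.746% ± 0.316 in those drug groups, against 44.9% ± 8.71 with vehicle. In AML2 CFD remained a small part, 5.98% ± 1.02 with OTX015 and 4.4% ± 0.463 with JQ1, against 0.530% ± 0.196 with vehicle. There SRGN and CTSG held most of the tags under both compounds, 46.9% and 37.9% with OTX015 and 45.8% and 41.1% with JQ1, and the share of AZU1 was 8.43% and 7.71%, against 24.9% with vehicle. These shares rest on 556 to 10859 tags of the 8 genes per library.

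**Figure D3:**
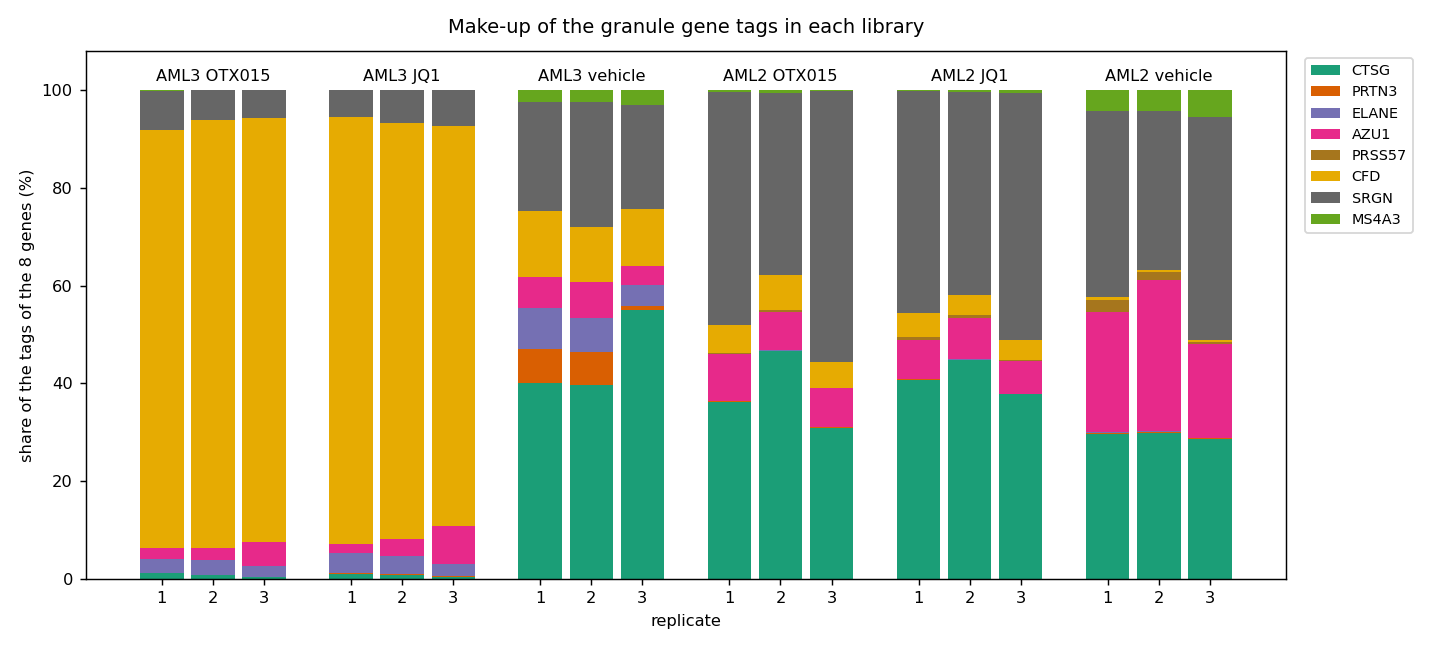
Share of each of the 8 genes in their summed tags, in percent, for each library, with replicates 1 to 3 of a group side by side. CFD fills most of each AML3 drug library and 12.2% on average of the AML3 vehicle libraries, while CTSG and SRGN fill most of the AML2 drug libraries.

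In AML3 with vehicle the means ran from CTSG at 3154 ± 901 CPM through SRGN at 1599 ± 170 CPM to CFD at 841 ± 55.4 CPM, which did not overlap, followed by ELANE at 447 ± 110, AZU1 at 402 ± 101 and PRTN3 at 323 ± 222 CPM, which did overlap, then MS4A3 at 184 ± 41.0 CPM, within the range of PRTN3, and PRSS57. With OTX015 CFD stood first at 1629 ± 554 CPM and SRGN second at 126 ± 49.4 CPM, and AZU1 and ELANE followed with overlapping libraries. In AML2 SRGN stood first in all 3 groups, at 953 ± 299 CPM with OTX015, 1314 ± 291 CPM with JQ1 and 1800 ± 333 CPM with vehicle, and its libraries overlapped with those of CTSG in each of them.

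Among the 27 annotated genes that start within 100 kb of the 5 chromosome 19 members, 11 others were in the table and 8 were tested. Of these 8, 0 rose and 3 fell with OTX015 in AML3 (54.9% of all genes called), and 0 rose and 2 fell with JQ1 (50.8%). In AML2 2 rose and 3 fell with OTX015 (40.3% of all genes called), and 1 rose and 1 fell with JQ1 (34.6%). The one that fell in all 4 comparisons was PLPPR3, which encodes a membrane protein of the lipid phosphate phosphatase family and whose start, on the other strand, is at −3.12 kb from that of AZU1 in GENCODE and at −5.88 kb in RefSeq. It had 79.7, 83.2 and 19.4 CPM in AML3 with OTX015 and 90.7, 90.9 and 32.5 CPM with JQ1, against 312, 348 and 155 CPM with vehicle. In AML2 it had 0, 0 and 8.42 CPM with OTX015 and 3.42, 4.41 and 3.53 CPM with JQ1, against 69.1, 86.8 and 66.4 CPM with vehicle. The drug and vehicle libraries overlapped in neither line. For PLPPR3 the log2 change in AML3 was −2.08 with OTX015 (SE 0.38, edgeR adjusted p = 5.69e-05) and −1.88 with JQ1 (SE 0.37, edgeR adjusted p = 0.000166). In AML2 it was −5.33 with OTX015 (SE 0.71, edgeR adjusted p = 2.04e-06) and −4.23 with JQ1 (SE 0.60, edgeR adjusted p = 6.15e-06). The OTX015 value was −9.21 without AML2 OTX015 replicate 3, the one library of that group with tags. Its difference between the lines was called for OTX015 (3.25, SE 0.93, edgeR adjusted p = 0.0281) and not for JQ1 (2.34, SE 0.76, edgeR adjusted p = 0.0606). The OTX015 call was lost without AML2 vehicle replicate 2, AML2 OTX015 replicate 1 or 2, or AML3 OTX015 replicate 1 or 2, at edgeR adjusted p of 0.0620 to 0.158. The JQ1 difference passed without AML2 OTX015 replicate 3 (0.0400), AML3 JQ1 replicate 3 (0.0145) or AML3 OTX015 replicate 3 (0.0234).

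**Figure D4:**
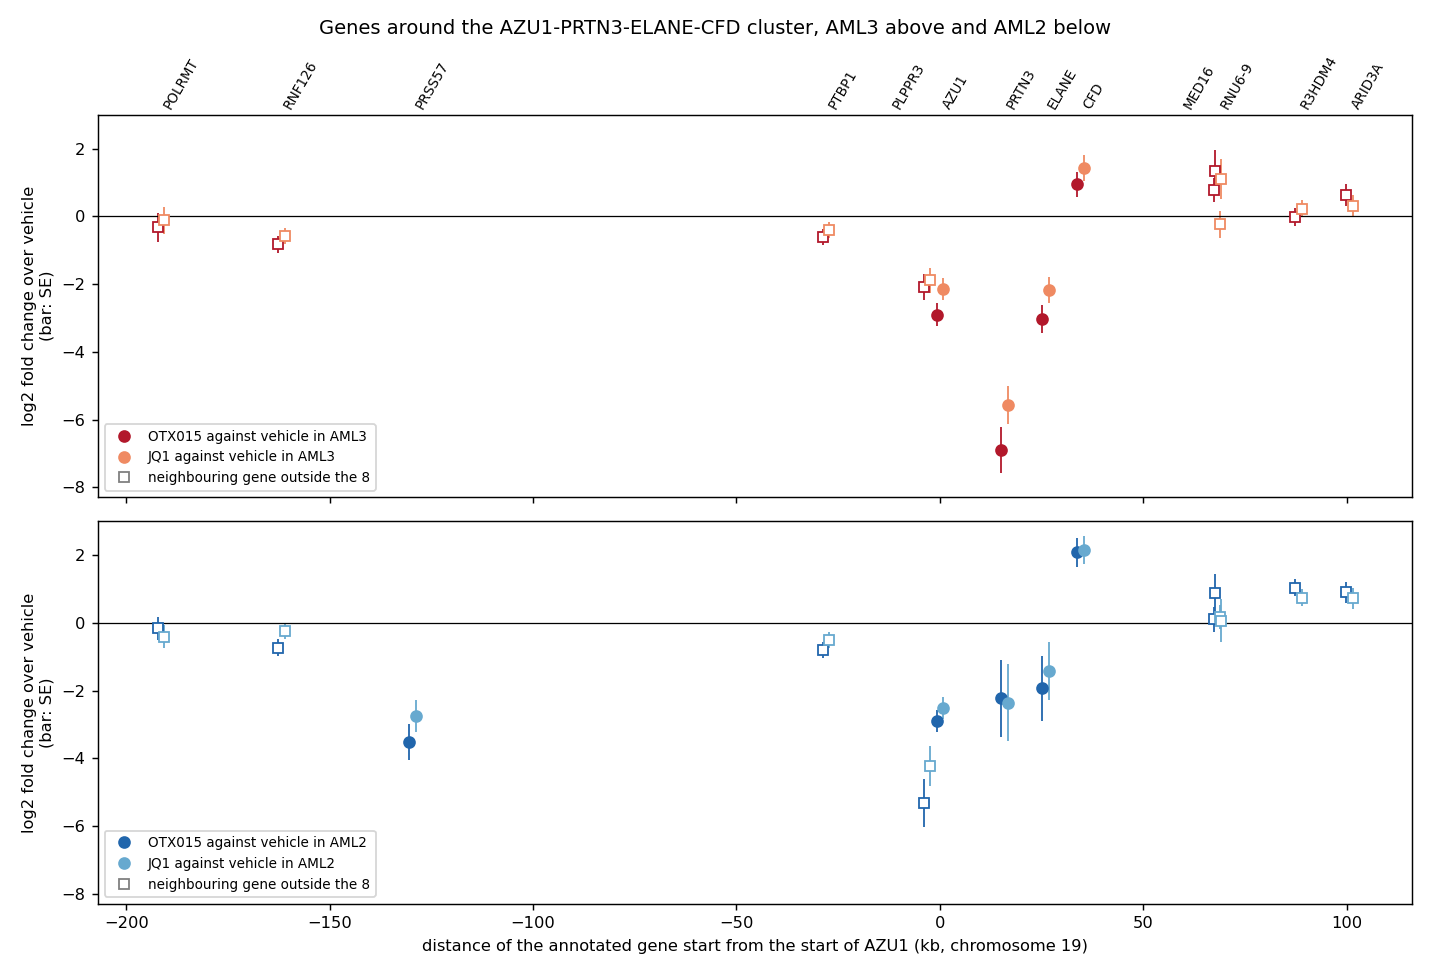
Log2 fold change over vehicle, with SE, of genes around the chromosome 19 cluster against the distance of their GENCODE start from that of AZU1 in kb, for AML3 above and AML2 below. Circles are members and squares are other genes. Changes below −1 are seen at PRSS57 in AML2, PLPPR3, AZU1, PRTN3 and ELANE, and CFD, 34.546 kb from AZU1, is above 0 in all 4 comparisons.

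An enhancer of the authors' table lies between the starts of PLPPR3 and AZU1, at chr19:823657-823955. Its name carries no build and was read as GRCh38, where 37.4% of the 3189 enhancers so named lie within 2000 bases of a transcript start, against 22.3% after a shift of 50000 bases. A reading as hg19 was not scored, so these percentages cannot choose between the builds. Around AZU1, PRTN3 and CFD the builds share positions. Their leading promoters in hg19 (chr19:827823-827845, 840991-841006 and 859654-859672) span the GRCh38 ends of their promoter windows (827836, 840998 and 859663). The middle of the enhancer is at −1.85 kb from the RefSeq start of PLPPR3 and −4.03 kb from that of AZU1, each upstream on the strand of that gene. It had 10, 9 and 5 tags in AML3 with OTX015 and 15, 12 and 3 tags with JQ1, against 73, 49 and 14 tags with vehicle. As CPM of promoter tags, the group means in that order were 10.8 ± 0.596, 10.7 ± 4.42 and 35.7 ± 13.6 (SD, n = 3 each). In AML2 it had 1, 1 and 0 tags with OTX015 and 1, 1 and 1 with JQ1, against 22, 31 and 13 with vehicle. The drug libraries lay below the vehicle libraries in both lines on that scale. A second enhancer, chr19:828898-829277, held 7 and 3 tags in AML3 with OTX015 and JQ1, against 25 with vehicle, and 1 and 6 tags in AML2, against 30 with vehicle. With names read as GRCh38, 5 of the 9 enhancers found within 100 kb of a member were near SRGN, with 3 to 8 tags in all. Only the 3189 of 3863 enhancers that name no build were searched, and those named in hg19 were left out. Enhancers were counted and not tested.

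**Figure D5:**
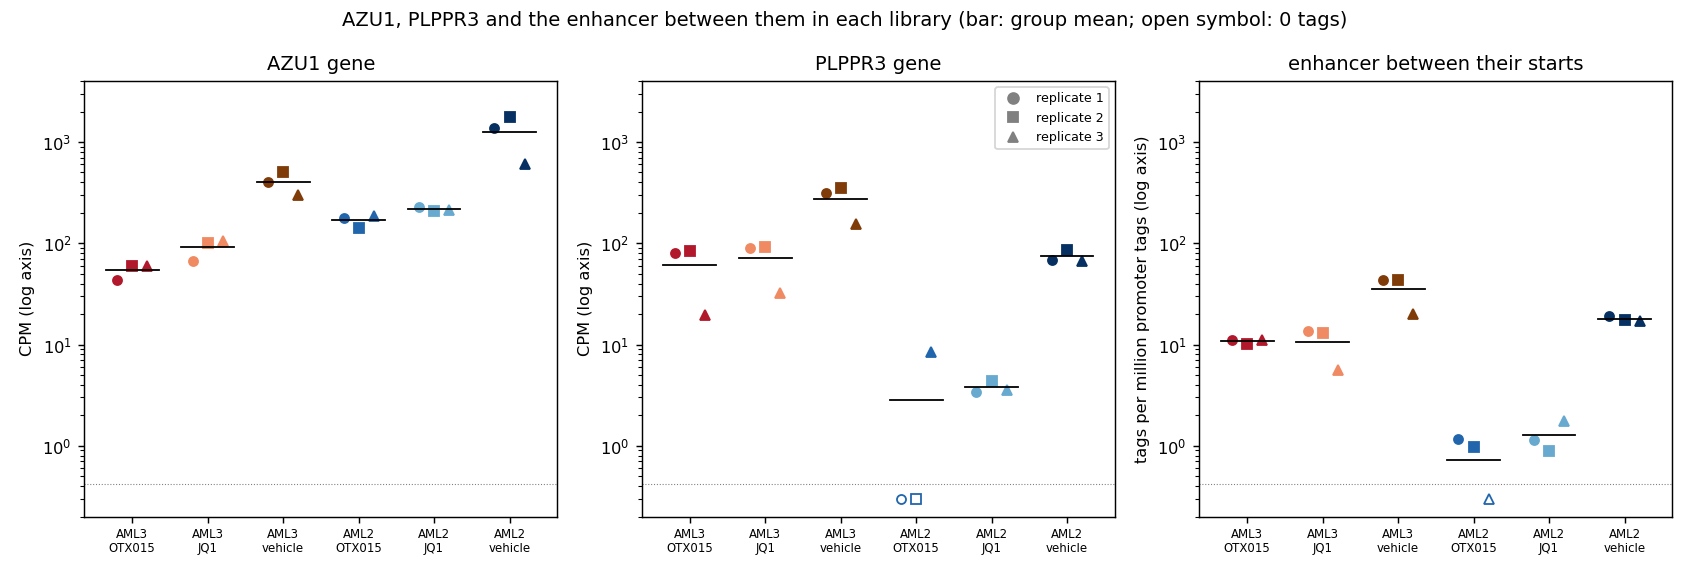
AZU1, PLPPR3 and the enhancer between their starts in each library, in CPM for the genes and in CPM of promoter tags for the enhancer, on log axes. Symbols are replicates, bars are group means and open symbols are libraries with 0 tags. In every panel the drug libraries of a line lie below its vehicle libraries.

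Genes that act with the 8 were described from lists of roles, to be read against the shares of all genes called given above and medians of 0.00 to 0.04 over all genes. List medians are given for OTX015 in AML3, JQ1 in AML3, OTX015 in AML2 and JQ1 in AML2, in that order. The list of other primary granule contents also held genes of eosinophil granules. MPO, DEFA1, DEFA3 and DEFA4 of that list were not in the table, and BPI was not tested. Of its 3 tested genes, LYZ and the eosinophil granule genes PRG2 and RNASE2, 0 rose and 2, 2, 2 and 3 fell. Their medians in AML2 were −2.79 and −2.03, and none is given for AML3, where PRG2 had 1 tag in all. LYZ, which encodes lysozyme, fell in AML3 to 21.7 ± 4.66 CPM with OTX015 and 30.4 ± 8.58 CPM with JQ1, against 110 ± 7.23 CPM with vehicle, and the JQ1 call was lost without AML3 JQ1 replicate 1 (edgeR adjusted p = 0.0543). In AML2 LYZ had 24.5, 25.2 and 56.8 CPM with OTX015 and 50.2, 33.5 and 104 CPM with JQ1, against 64.0, 72.7 and 615 CPM with vehicle. The vehicle library numbered 3 stood far above its 2 partners, and the JQ1 libraries overlapped with those of vehicle. The log2 change was −2.88 with OTX015 and −2.03 with JQ1 (edgeR adjusted p = 0.000469 and 0.00595), but −1.07 and −0.22 without that library, and the JQ1 call was then lost (edgeR adjusted p = 0.651). PRG2, the eosinophil granule major basic protein, fell in AML2 to 8.67 ± 8.22 CPM with OTX015 and 10.9 ± 9.46 CPM with JQ1, against 66.1 ± 50.8 CPM with vehicle. The libraries of PRG2 overlapped. Its vehicle library numbered 3, at 7.67 CPM, lay below the highest OTX015 library (16.3 CPM) and the highest JQ1 library (16.7 CPM). RNASE2, a granule ribonuclease, fell in 3 of the comparisons and missed the threshold with OTX015 in AML2 (−1.07, edgeR adjusted p = 0.0592). Leaving out single libraries ended its JQ1 calls, in AML3 without AML3 vehicle replicate 3 (edgeR adjusted p = 0.0903) or AML3 JQ1 replicate 3 (0.0669), and in AML2 without AML2 vehicle replicate 2 (0.0581) or AML2 JQ1 replicate 2 (0.102). The OTX015 difference in AML2 passed without AML2 vehicle replicate 3 (0.0412), AML2 JQ1 replicate 2 (0.0492) or AML3 JQ1 replicate 3 (0.0450). The 16 lysosomal genes whose proteins are also stored in these granules gave other counts. In AML3 3 rose and 1 fell with OTX015 and 3 rose and 0 fell with JQ1. In AML2 5 rose and 0 fell with each compound. The medians of that list were −0.15, −0.13, 0.36 and 0.44. CD63, a membrane protein of primary granules, was 297 ± 111 CPM in AML3 with OTX015 and 336 ± 138 CPM with JQ1, against 318 ± 45.4 CPM with vehicle, and passed no test.

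Of 13 genes that process, sort or release granule proteins, 2 rose and 5 fell with each compound in AML3, 1 rose and 5 fell with OTX015 in AML2, and 0 rose and 4 fell with JQ1. Their medians were 0.04, 0.09, −0.20 and −0.36, so in AML3 the median and the count differ in sign. Among those that fell in AML2 was LYST. Its calls were lost without AML2 vehicle replicate 1 (edgeR adjusted p = 0.120 with OTX015 and 0.0931 with JQ1) or 2 (0.123 and 0.0956), and without several other single libraries. CTSC, the protease that trims the precursors of cathepsin G, elastase and proteinase 3, rose in AML3 to 726 ± 247 CPM with OTX015 (log2 1.98, SE 0.34) and 711 ± 348 CPM with JQ1 (log2 1.95, SE 0.34), against 184 ± 16.1 CPM with vehicle (edgeR adjusted p = 3.60e-05 and 5.28e-05). In the same line the genes of its substrates CTSG, PRTN3 and ELANE fell. In AML2 CTSC was 235 ± 40.9 CPM with OTX015 and 200 ± 58.3 CPM with JQ1, against 259 ± 46.7 CPM with vehicle, and did not pass. The difference between the lines was called for both compounds, at 2.11 with OTX015 (SE 0.48, edgeR adjusted p = 0.00534) and 2.31 with JQ1 (SE 0.48, edgeR adjusted p = 0.00272). VAMP8, a SNARE protein of granule release, fell to 55.5 ± 12.3 CPM with OTX015 and 77.0 ± 27.7 CPM with JQ1 in AML3, against 432 ± 23.1 CPM with vehicle. In AML2 it fell to 146 ± 34.5 CPM with OTX015 and 164 ± 42.2 CPM with JQ1, against 565 ± 140 CPM with vehicle. Its edgeR adjusted p was 3.55e-08, 3.51e-07, 6.84e-06 and 2.55e-05 in those 4 comparisons.

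Of 6 tested inhibitors of granule proteases, 1 rose in each of the 4 comparisons and 4, 3, 3 and 3 fell, with medians of −1.03, −0.75, −0.70 and −0.92. SERPINB6, an intracellular inhibitor of cathepsin G, fell to 29.8 ± 16 CPM with OTX015 and 39.4 ± 14.3 CPM with JQ1 in AML3, against 71.3 ± 12.9 CPM with vehicle. The JQ1 call was lost without AML3 vehicle replicate 1 (edgeR adjusted p = 0.105) or AML3 JQ1 replicate 2 (0.0676) or 3 (0.0621). SERPINB1, an inhibitor of elastase, proteinase 3 and cathepsin G, fell with OTX015 in AML3 (log2 −0.85, SE 0.30, edgeR adjusted p = 0.0183) and did not pass in the other 3 comparisons. Its OTX015 call was lost without AML3 vehicle replicate 1 (0.0607) or AML3 OTX015 replicate 3 (0.0795), and its JQ1 difference in AML3 passed without AML3 JQ1 replicate 1 (0.0392), each with edgeR. SERPINB9, an inhibitor of granzyme B, was the one that rose, to 155 ± 65.6 CPM with OTX015 and 156 ± 72.0 CPM with JQ1 in AML3, against 74.8 ± 35.8 CPM with vehicle. Both of these calls were lost without AML3 vehicle replicate 3 (edgeR adjusted p = 0.0642 and 0.0662), that of OTX015 also without AML3 OTX015 replicate 2 (0.0850) and that of JQ1 without AML3 JQ1 replicate 2 (0.0742). In AML2 SERPINB9 had 7 tags with OTX015 and 11 with JQ1, against 0 with vehicle, and both calls there were lost without 1 or another library. Of 9 genes that build glycosaminoglycan chains such as those of serglycin, 3 rose with OTX015 and with JQ1 in AML3 and with OTX015 in AML2, and 0 fell. With JQ1 in AML2 2 rose and 1 fell, and the medians were 0.38, 0.51, −0.05 and 0.14. CHST11, a chondroitin sulfotransferase, rose in AML3 to 426 ± 31.1 CPM with OTX015 and 380 ± 39.6 CPM with JQ1, against 107 ± 6.75 CPM with vehicle.

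Of 10 tested transcription factors that act at granule genes, 2 rose and 5 fell with each compound in AML3, and 3 rose and 0 fell with each compound in AML2, with medians of −0.60, −0.58, 0.12 and 0.30. SPI1, which encodes PU.1, fell in AML3 to 57.0 ± 18.1 CPM with OTX015 and 75.3 ± 21 CPM with JQ1, against 307 ± 63 CPM with vehicle. In AML2 it was 232 ± 79.6 CPM with OTX015 and 274 ± 35.5 CPM with JQ1, against 355 ± 58.9 CPM with vehicle, and did not pass, although the OTX015 value passed without AML2 OTX015 replicate 1 (edgeR adjusted p = 0.0209) or AML3 JQ1 replicate 3 (0.0442). The difference of its change between the lines was −1.79 with OTX015 (SE 0.40, edgeR adjusted p = 0.00510) and −1.63 with JQ1 (SE 0.39, edgeR adjusted p = 0.00992). CEBPA, which encodes C/EBP-alpha, fell in AML3 to 332 ± 41.4 CPM with OTX015 and 290 ± 43.8 CPM with JQ1, against 613 ± 41.8 CPM with vehicle, and did not pass in AML2, although the OTX015 value there passed without AML2 vehicle replicate 3 (0.75, edgeR adjusted p = 0.0487). Its difference between the lines was −1.43 with OTX015 (SE 0.38, edgeR adjusted p = 0.0160) and −1.55 with JQ1 (SE 0.38, edgeR adjusted p = 0.0104). The OTX015 difference was lost without AML2 vehicle replicate 1 (edgeR adjusted p = 0.0575) or AML2 OTX015 replicate 1 (0.0529). IRF8, a factor of monocyte commitment, fell in AML3 to 247 ± 14.8 CPM with OTX015 and 241 ± 26.9 CPM with JQ1, against 1104 ± 111 CPM with vehicle.

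Of 16 secondary and tertiary granule and neutrophil genes listed, 8 were in the table and 3 were tested, MMP9, CHI3L1 and CYBB. LTF, MMP8 and CEACAM8 were not in the table, and LCN2 and CAMP were not tested. Of the 3, 2 fell and 0 rose with each compound in AML3, and 3 rose and 0 fell with each in AML2. Their medians were −2.73, −2.28, 3.50 and 3.26. These counts describe the 3 genes and not the later granules as a whole. In AML2 the JQ1 call of CHI3L1 was lost without vehicle replicate 2 (edgeR adjusted p = 0.0520) or 3 (0.0653) or JQ1 replicate 3 (0.0675). MMP9, the gelatinase of tertiary granules, fell in AML3 to 9.10 ± 6.23 CPM with OTX015 and 12.7 ± 8.01 CPM with JQ1, against 64.8 ± 48.7 CPM with vehicle. It rose in AML2 to 140 ± 20.1 CPM with OTX015 and 121 ± 22.9 CPM with JQ1, against 13.7 ± 10.9 CPM with vehicle. The difference between the lines was −6.23 with OTX015 (SE 0.75, edgeR adjusted p = 6.27e-06) and −5.54 with JQ1 (SE 0.72, edgeR adjusted p = 1.51e-05). The 4 tested genes of the alternative complement list were C3 and the complement inhibitors CD46, CD55 and CD59. Of these, 1 rose with each compound in AML3 and 2 with each in AML2, and 0 fell, with medians of 0.63 and 0.57 in AML2. In AML3 the fitted medians were 0.49 and 0.64, and with OTX015 the median was −0.06 when C3, at 3 tags or fewer in both groups, was left out. CD59 was called in AML2, but not without vehicle replicate 2 (edgeR adjusted p = 0.236 with OTX015 and 0.340 with JQ1). Leaving out OTX015 replicate 2 ended its OTX015 call (0.137), and any of several other single libraries its JQ1 call. C3, the component whose cleavage the factor D pathway drives, rose in AML2 to 21.8 ± 8.45 CPM with OTX015 and 14.5 ± 11.1 CPM with JQ1, against 1.53 ± 0.22 CPM with vehicle. In AML3 it was 1.09 ± 1.10 CPM with OTX015 and 1.59 ± 1.41 CPM with JQ1, against 0.577 ± 0.999 CPM with vehicle. MS4A6A and MS4A7, which belong to the family of MS4A3, were both tested and both fell in all 4 comparisons. MS4A7 fell in AML3 to 0.729 ± 0.631 CPM with OTX015 and 0.649 ± 0.568 CPM with JQ1, against 19.3 ± 3.64 CPM with vehicle.

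Across the 18 libraries, log2 CPM of the 8 genes fell into more than 1 pattern, given here as Pearson correlations that share library and depth and carry no test. CTSG and SRGN were closest, at 0.98, and AZU1 and MS4A3 were at 0.89. ELANE followed PRTN3 (0.73) and CFD (0.77) rather than CTSG (−0.17). The 18 libraries pool both lines and all treatments. ELANE and CFD were both higher in AML3 than in AML2, but in AML3 the compounds lowered ELANE and raised CFD. CFD ran against PRSS57 (−0.85), AZU1 (−0.72) and SRGN (−0.70). Among 8700 other genes averaging at least 10 CPM, those most like each member were TEX264 for CTSG (0.99), MCEMP1 for PRTN3 (0.92), HIST1H4F for ELANE (0.98), MRPS15 for AZU1 (0.97), PRSS21 for PRSS57 (0.95), SERPINB9 for CFD (0.97), CLIC1 for SRGN (0.97) and NME2 for MS4A3 (0.97). NME2 also had the highest mean correlation with all 8, which was 0.55. HIST1H4F is one of several near-identical histone genes between which the alignment can split tags, so its value is uncertain.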

How the data were processed

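CAGE tags were measured in 18 libraries of OCI-AML3 and OCI-AML2 cells, 3 for each of 6 groups. Per the labels' protocols total RNA was extracted with Qiagen RNeasy columns, and per the submitters' processing notes STAR and hg38 were used. The deposited values are raw tag counts that the authors summed per gene symbol, per promoter and per enhancer. How tags were clustered, and how tags of near-identical genes were treated, is not given in the sources used here.

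Counts of all 10031 genes that passed edgeR's filter on low counts were fitted together over the 18 libraries (R 4.3.3, edgeR 4.0.16 with limma 3.58.1, TMM factors, quasi-likelihood test, Benjamini-Hochberg adjustment, 12 residual degrees of freedom). The interaction compared a compound's change between the lines. SE is the log2 change divided by the root of the F statistic. The genes and lists were chosen with earlier results of these data known. From each list up to 4 tested genes with the highest mean CPM over the libraries could be named, and likeness was Pearson correlation of log2 CPM with a prior count of 2 among genes averaging at least 10 CPM. Where a group held 1 to 3 tags, a ratio of tags with an exact 95% counting interval replaces the fold, and a group at 0 was set to 3 tags over the group. Alternatives were DESeq2 1.42.0, its size factors, library size alone, no filter, the replicate number as a block, only the groups compared, replicates 1 and 2 alone, the leading promoter and leaving out each library. Same-numbered libraries deviated together in every pair, with correlations over 0.1, for OTX015 against JQ1 in AML3 (0.351 to 0.623) and in AML2 (0.121 to 0.347) and for AML3 against AML2 under JQ1 (0.106 to 0.246). In these comparisons libraries numbered 3 matched their own number best. Those numbered 1 or 2 matched another number about as well or better, so pairing by number is not shown. Libraries numbered 3 also matched their own number best in every other comparison of groups. For JQ1 against vehicle in AML2 that correlation was 0.164, against at most −0.0373 with another number. Libraries numbered 3 thus deviated in part together, and the main fit has no term for this. What set them apart was not tested. The edgeR fit was tested on simulated data.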

Additional observations from a re-analysis of the deposited data

Results flagged for a closer look

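For 3 of the 8 genes the change under a compound differed between AML3 and AML2 by the interaction test, edgeR's quasi-likelihood test with Benjamini-Hochberg adjustment over all genes. For CTSG the change in AML3 minus that in AML2 was −6.71 on the log2 scale with OTX015 (adjusted p = 1.12e-07) and −6.76 with JQ1 (adjusted p = 7.67e-08). For SRGN it was −2.73 with OTX015 (adjusted p = 0.000757) and −2.81 with JQ1 (adjusted p = 0.000592). For MS4A3 it was −3.32 with JQ1 (adjusted p = 0.0137), from 2 tags in AML3 with JQ1, so that its size depends on the prior count.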

How the results depend on the processing

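Over 82 results on the 8 genes and 2132 values under alternatives, 2080 stayed on the same side of the threshold, 17 were no longer called, 35 became called and 0 changed direction where called. Many alternatives left out a library of a group not compared, so these are not 2132 separate checks. Of the values, 21 had the other sign, all in 7 results that were not called: PRTN3, ELANE and CFD for OTX015 against JQ1 in AML2, PRTN3 between the lines under OTX015 (0.57, −0.21 without AML2 OTX015 replicate 2), and the interactions of PRTN3 with JQ1 (−3.21, 0.48 without AML2 JQ1 replicate 1), of ELANE with OTX015 (−1.10, 0.23 without AML2 OTX015 replicate 2) and of AZU1 with OTX015. With OTX015 in AML2, 8 genes were called with the replicate number as a block and 8 with replicates 1 and 2 alone, against 5. With JQ1 in AML2, 8 were called with replicates 1 and 2 alone, against 4. Libraries numbered 3 deviated in part together across groups, and the part of this in these counts was not tested. Leaving out each library gave 6 to 7 called genes with OTX015 and 7 in every case with JQ1 in AML3, and 4 to 7 and 4 to 5 in AML2. In the 2 drug comparisons in AML2 same-numbered libraries did not all deviate together, at −0.0531 to 0.136 and 0.0560 to 0.164, so the numbers are not shown to pair them there. The block added the OTX015 calls of CTSG (−0.89, edgeR adjusted p = 0.0363), PRTN3 (0.0104) and ELANE (0.0216), the JQ1 call of PRTN3 (0.00787) and the OTX015 interaction of PRTN3 (−4.76, 0.0181). Over all comparisons 16 of 27 same-numbered pairs correlated best with their own number. In the comparisons where every same-numbered correlation was over 0.1, the block changed no call but that of PRTN3 between the lines under JQ1. Library size alone in place of TMM moved the median of all genes from 0.03 to 0.51 with OTX015 and from 0.04 to 0.44 with JQ1 in AML3, and from 0.02 to 0.21 and from 0.00 to 0.16 in AML2. Leaving out each library was added for the genes named from the lists, and their medians were also taken with genes of few tags at their bound or left out, both chosen after seeing the data. Depth limits PRTN3 and ELANE in AML2 and MS4A3 and PRSS57 in AML3, which rest on few tags, and intervals cover counting error only.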
